A study of Capra hircus with 9 samples.

Results

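The small RNA content of the goat submandibular gland was compared between 12 months and 1 month of age. The 6 libraries of these ages, of 9 in all, were taken by their labelled age: 1-month goats 1, 2 and 3 and 12-month goats 3, 4 and 5, each from a different healthy female Lubo goat (Capra hircus, kept alike with natural light and free feeding). All 6 samples were gland tissue, from which total RNA was taken with TRIzol for Illumina miRNA libraries. Goats 2, 3 and 5 at 24 months entered the same fit for the estimate of spread and are given beside the results as a further age. The labels give ages only, so whether the young animals were still suckling is not recorded, and a goat number at 1 month does not refer to the animal with that number at 12 months. The table counts reads for 2189 mature miRNA entries: 418 carry goat names (chi-), 1292 carry names of other species with an ending -x, -y or -z, and 479 are candidates without a family name. A level below is the TMM-scaled CPM, that is, the count relative to the library total after scaling libraries to each other. Levels of counts summed over a seed were scaled over the seed sums, each listed sequence entered once, and are not on the scale of single entries. A difference is the log2 fold change of 12 months over 1 month from edgeR's quasi-likelihood test, with its standard error (SE) and its Benjamini-Hochberg adjusted p over all entries tested. A difference passed below an adjusted p of 0.05.

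The submandibular gland is a salivary gland of acini, ducts, connective tissue, vessels and resident immune cells. A miRNA is a short RNA cut from a hairpin that guides repression of messenger RNAs, chiefly through its seed, bases 2 to 8 from the 5′ end, so that miRNAs with 1 seed address overlapping targets. Several miRNAs mark cell types: the miR-200 and miR-141 group keeps epithelial cells epithelial, miR-148 and miR-375 are rich in secretory glands, miR-142, miR-150, miR-155 and miR-223 are made in blood cells, and miR-17, miR-20, miR-92 and their relatives accompany proliferation. A gland is a mixture, so fewer cells of a type and less RNA per cell cannot be told apart here.

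The sequences that carry the main differences are given first, as the deposited table lists them, in DNA letters and with the seed in capitals. The first set holds the epithelial and gland miRNAs that were higher at 12 months, with chi-miR-200a, which shares the seed of chi-miR-141 and did not pass. The arm entry miR-200-x and the arm entry miR-141-x have seeds of their own.
chi-miR-141: tAACACTGtctggtaaagatgg
chi-miR-200a: tAACACTGtctggtaacgatg
chi-miR-200c: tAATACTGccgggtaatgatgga
miR-200-x: cATCTTACtgggcagcattgga
miR-141-x: cATCTTCCagcacagtgttgga
miR-375-y: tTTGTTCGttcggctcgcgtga
miR-148-y: tCAGTGCAtgacagaacttggt

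The next set holds the miR-29 seed, where all 4 tested members passed upward and 3 are shown, and the abundant miR-101 entry.
chi-miR-29a-3p: tAGCACCAtctgaaatcggtt
miR-29-y: tAGCACCAtctgaaatcggttaa
chi-miR-29b-3p: tAGCACCAtttgaaatcagt
miR-101-y: tACAGTACtgtgataactgact

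The next set holds miRNAs known from blood cells and lymphocyte development that were lower at 12 months, with chi-miR-181c-5p, which did not pass. The 3 miR-181 entries share a seed and the others each have their own.
miR-142-x: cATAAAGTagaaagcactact
miR-142-y: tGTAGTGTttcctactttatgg
chi-miR-150: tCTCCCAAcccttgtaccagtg
chi-miR-155-5p: tTAATGCTaatcgtgataggggt
chi-miR-223-3p: tGTCAGTTtgtcaaatacccca
chi-miR-128-3p: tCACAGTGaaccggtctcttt
miR-181-x: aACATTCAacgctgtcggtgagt
chi-miR-181b-5p: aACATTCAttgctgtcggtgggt
chi-miR-181c-5p: aACATTCAacctgtcggtgag

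The last set shows near-identical miRNAs from different hairpins, whose values are set side by side below. All but chi-miR-16a-5p passed as lower. From 16a to 16b the only change is A21G, counted from the 5′ end.
chi-miR-15b-5p: tAGCAGCAcatcatggtttaca
chi-miR-15a-5p: tAGCAGCAcataatggtttgtgg
chi-miR-16b-5p: tAGCAGCAcgtaaatattgggg
chi-miR-16a-5p: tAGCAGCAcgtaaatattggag
chi-miR-17-5p: cAAAGTGCttacagtgcaggtagt
chi-miR-106a-5p: aAAAGTGCttacagtgcaggtagc
chi-miR-20a-5p: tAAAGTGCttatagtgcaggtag
chi-miR-20b: cAAAGTGCtcacagtgcaggtag

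Libraries held 10339013 to 13277448 counts at 1 month and 8288492 to 12064729 at 12 months. No library of the table holds a count of 1, and each lists at least 116 entries at 2 counts, so an entry at 0 may have had fewer reads than were kept and no lower limit is computed for it. The 1-month goats were uneven: the median SD of log2 CPM over entries was 0.64 at 1 month, 0.30 at 12 months and 0.36 at 24 months. Goat 2 stood apart, with a median absolute difference of 0.93 from goat 1 and 1.04 from goat 3, against 0.32 between goats 1 and 3. In goat 2 the epithelial list took 0.876% of counts, against 5.82% and 3.97% in goats 1 and 3, and the leukocyte list 12.7%, against 3.73% and 5.78%. Values for named miRNAs are therefore given with and without 1-month goat 2. miR-375-y, an epithelial secretory miRNA, was level across the same 3 goats, as its values below show.

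Of 937 entries tested, 180 passed (19.2%): 56 were higher at 12 months (5.98%) and the others lower (13.2%). Counts of rises and falls in the lists below are to be read against these shares. The 2 ages did not overlap in 48.5% of all tested entries and in 179 of those that passed, the exception being miR-20-x, named after its values were seen. The lower entries together took 12.9, 39.5 and 12.7% at 1 month and 2.38, 2.08 and 2.35% at 12 months, and the 56 higher entries took 5.59, 2.92 and 5.04% at 1 month and 10.8, 13.1 and 12.3% at 12 months. These pools were chosen by the test itself and are a description of how much of the miRNA pool it covers. At every level of expression falls outnumbered rises, but least so among abundant miRNAs: 12 rose and 16 fell of the entries with a mean of at least 1000 CPM, 10 and 22 of those between 100 and 1000, 15 and 40 between 10 and 100, and 19 and 46 below 10. Many entries are near-copies of each other. Joined wherever they share a run of 16 bases, the 180 entries fell into 50 higher and 94 lower groups, and no group held entries of both directions. For 7 entries that passed, 4 of them candidates, every library of 1 age was listed at 0 (4 at 12 months, 3 at 1 month), and their fitted fold is no measure of size.

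**Figure D1:**
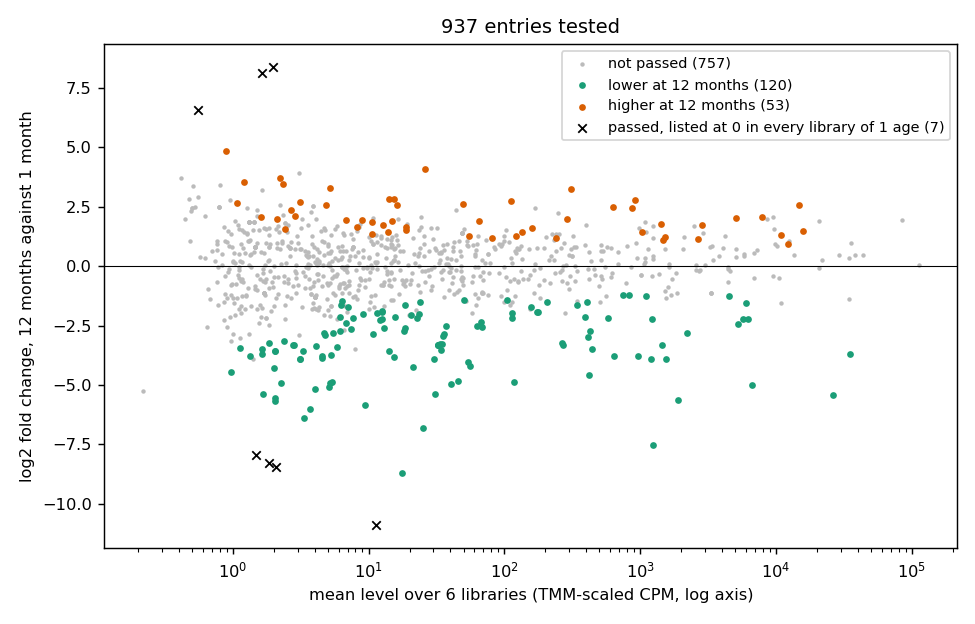
Each point is 1 of 937 entries, by its mean level over the 6 libraries (TMM-scaled CPM, log axis) and its log2 fold change of 12 months over 1 month. Green points (120) passed as lower and orange points (53) as higher, grey points did not pass, and black crosses mark the 7 entries that passed with every library of 1 age listed at 0.

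The number of rises depended on the scaling. TMM sets libraries against 1 reference library, which was 24-month goat 2. With each of the 9 libraries as reference in turn, 25 to 62 of 178 to 197 entries that passed were higher, and the median of all entries moved from −0.02 to between −0.34 and −0.01. With library size alone 26 were higher (14.4% of the calls, against 31.1%), at a median of −0.20, and with the upper quartile 77 were higher and 119 lower (39.3%), at 0.12. The 6 libraries alone gave 21 higher (13.5%), at −0.34. Rises of small size are therefore to be read against a shift of up to about this size in the whole table. Under all 12 scalings, 119 of the lower and 25 of the 56 higher entries passed. With 1 entry per sequence 26 were higher and 171 lower. Leaving out 12-month goat 4 left 83 entries, 79 of them among the 180, and leaving out 12-month goat 3 or 5 left 130 each. The number of rises was 19, 21 and 14 without 12-month goat 3, 4 and 5, 26, 22 and 28 without 24-month goat 2, 3 and 5, and 60 and 40 without 1-month goat 1 and 3. The number of falls was 62 without 12-month goat 4 and 111 to 175 without any other single goat. Without 1-month goat 2 there were 218 entries, 84 of them higher, which included 48 of the 56 higher and 102 of the lower entries called with all libraries.

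Epithelial miRNAs were in part higher at 12 months. Of 23 tested entries of the epithelial list (miR-200, miR-141, miR-429, miR-203, miR-205, miR-183, miR-96, miR-182 and miR-8), 6 rose and 0 fell, with a median of 1.68 against −0.02 over all entries tested. The count of rises moved with single goats: it was 15 without 1-month goat 1 and 14 without 1-month goat 2 (median 1.21), and 3 without 12-month goat 4 or 5. No entry fell in any of these. Their summed share was 5.82, 0.876 and 3.97% at 1 month and 10.6, 11.9 and 10.3% at 12 months. chi-miR-141, which holds back the ZEB repressors of epithelial genes, stood at 6612, 1598 and 4771 CPM in 1-month goats 1, 2 and 3 and at 23141, 26413 and 26652 CPM in 12-month goats 3, 4 and 5 (log2 2.55, SE 0.47, adjusted p = 0.00497). Every 12-month goat lay far above every 1-month goat, and goat 2 was the lowest. Its other arm, miR-141-x, was scarce and moved alike, at 46.3, 13.0 and 28.1 CPM at 1 month and 158, 219.6 and 210.2 CPM at 12 months (log2 2.75, SE 0.47, adjusted p = 0.00403). The rise of chi-miR-141 was 2.14 without 1-month goat 2 (adjusted p = 0.000259), and that of miR-141-x was 2.37 without 1-month goat 2 (adjusted p = 0.000851). miR-200-x stood at 388, 37.3 and 278 CPM at 1 month and 1421, 1548 and 1832 CPM at 12 months (log2 2.77, SE 0.66, adjusted p = 0.0155, and 2.24 without 1-month goat 2, adjusted p = 0.000297), and lost its call without 12-month goat 3 or 5 (adjusted p = 0.0619 and 0.0811).

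chi-miR-200c, the hairpin neighbour of chi-miR-141, stood at 3519, 479 and 2036 CPM at 1 month and 9221, 6941 and 8127 CPM at 12 months (log2 2.01, SE 0.59, adjusted p = 0.0361). chi-miR-200c stood at 1.52 without 1-month goat 2 (adjusted p = 0.0111). Its rise was 2.66 without 1-month goat 1, and its call was lost without 1-month goat 3 or any 12- or 24-month goat (adjusted p = 0.0725 to 0.171). It was also lost with library size alone (adjusted p = 0.0729) and with 1-month goat 1 or 2 as TMM reference (0.0504 and 0.072). The other hairpin group of the family, miR-200a, miR-200b and miR-429, had 0 of 3 goat-named entries past the threshold, at 1.89, 1.98 and 0.74. Only goat-named entries were placed in hairpin groups. The arm entry miR-200-x, which passed, is therefore counted in neither group, and its name does not say which miR-200 hairpin it comes from. chi-miR-200a, the most abundant of the list, stood at 14878, 1004 and 10743 CPM at 1 month and 32367, 31613 and 34413 CPM at 12 months (adjusted p = 0.0695, and 1.33 without 1-month goat 2, adjusted p = 0.00123). The ages did not overlap for this miRNA, and goat 2 lay far below the other young goats. chi-miR-429, which has the seed of chi-miR-200c, stood at 434, 21.1 and 234 CPM at 1 month and 336, 397 and 417 CPM at 12 months and overlapped between ages. Neither the difference between the hairpin groups nor that between chi-miR-141 and chi-miR-200a was tested: the log2 ratio of chi-miR-141 to chi-miR-200a within a library was −1.17, 0.67 and −1.17 at 1 month and −0.48, −0.26 and −0.37 at 12 months, which overlap.

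Gland miRNAs moved in part. In the secretory gland list (miR-148, miR-152, miR-375, miR-7, miR-216 and miR-217), 3 of 12 tested entries rose and 1 fell, with a median of 0.49. Of all tested entries 5.98% rose and 13.2% fell. Without 1-month goat 1 there were 5 rises and without 1-month goat 2 there were 5 rises and 2 falls, while without 12-month goat 5 no entry rose and without 12-month goat 3 or 4 or 24-month goat 2 or 3 there was 1 rise (2 without 24-month goat 5). The fall was not called without 12-month goat 4, and 2 entries fell without 1-month goat 3 or any 24-month goat. The share of the list was 8.72, 1.45 and 6.69% at 1 month and 14.4, 16.6 and 16.98% at 12 months. miR-375-y, which restrains hormone and enzyme release, stood at 8601, 8349.7 and 8155 CPM in 1-month goats 1, 2 and 3 and at 20816, 18947 and 29508 CPM in 12-month goats 3, 4 and 5 (log2 1.46, SE 0.30, adjusted p = 0.00779). Its 1-month goats agreed closely, goat 2 included, and the rise was 1.44 without 1-month goat 2, adjusted p = 0.00224. The call rested on the 12-month goats, at 0.85 and an adjusted p of 0.148 without goat 5, and it was lost at 0.051 to 0.0661 without 12-month goat 3 or 24-month goat 2 or 3. miR-148-y stood at 907, 347 and 670.4 CPM at 1 month and 1633, 3208 and 1725 CPM at 12 months (log2 1.77, SE 0.47, adjusted p = 0.025, and 1.45 without 1-month goat 2, adjusted p = 0.0321), without overlap between ages. Its call was lost without any 1 of the 12- or 24-month goats (adjusted p = 0.0635 to 0.0997), with library size alone (0.0543) and with 1-month goat 2 as reference (0.0527). The listed sequence of miR-148-y is that of miR-152-y with a further t at its end, and not that of chi-miR-148a-3p. miR-152-y stood at 0.73 and did not pass. The most abundant entry of the list, chi-miR-148a-3p, was at 60322, 4429 and 42082 CPM at 1 month and 126267, 130788 and 147623 CPM at 12 months (log2 1.92, adjusted p = 0.0626). chi-miR-7-5p, a miRNA of endocrine cells, was the entry that fell (log2 −1.41, adjusted p = 0.0305). Beside the share of falls over all tested entries, 1 fall among 12 is no result about this list.

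**Figure D2:**
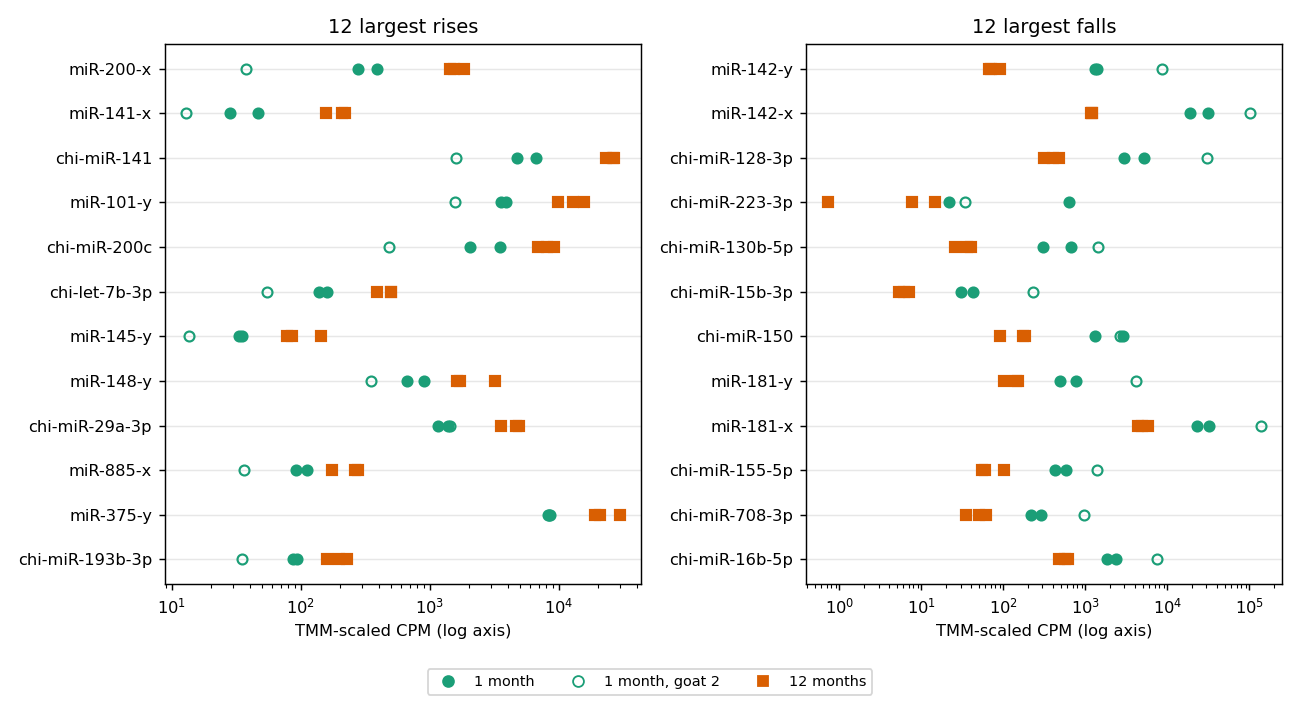
Levels in each of the 6 libraries (TMM-scaled CPM, log axis) of 12 miRNAs that rose and 12 that fell. Each seed is shown by its most abundant entry past the threshold without overlap and with at least 100 CPM at either age, and these are the seeds whose shown entry had the largest log2 difference. Other entries of a seed can differ more (chi-miR-29b-3p, at 3.23, is not shown beside chi-miR-29a-3p). Orange squares are 12-month goats and green circles 1-month goats, the open circle being goat 2. That circle is the lowest 1-month point in 10 of the 12 rises and the highest in 10 of the 12 falls.

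Outside the epithelial and gland lists, the rises were led by miR-29, a repressor of collagen and other matrix genes. Of 7 tested entries of the miR-29 list 5 rose and 0 fell, with a median of 1.88, and the share of the list was 0.167, 0.161 and 0.201% at 1 month and 0.613, 0.550 and 0.594% at 12 months. Leaving out single goats left 3 to 5 rises, the 3 without 12-month goat 5. chi-miR-29a-3p stood at 1159.7, 1432 and 1389 CPM in 1-month goats 1, 2 and 3 and at 4935, 3527 and 4684 CPM in 12-month goats 3, 4 and 5 (log2 1.72, SE 0.31, adjusted p = 0.00473, and 1.76 without 1-month goat 2, adjusted p = 0.0011), with an adjusted p of 0.0512 without 12-month goat 5. chi-miR-29b-3p was scarcer, at 59.8, 46.6 and 71.0 CPM at 1 month and 561, 467 and 634 CPM at 12 months (log2 3.23, SE 0.35, adjusted p = 0.0011). Goat 2 lay close to the other young goats for both. The log2 ratio of 29b to 29a within a library was −4.28, −4.94 and −4.29 at 1 month and −3.14, −2.92 and −2.89 at 12 months, and the ages did not overlap. This ratio, like the other ratios between related miRNAs given below, was chosen after its values were seen and was not tested.

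miR-101-y, from a family that targets the chromatin enzyme EZH2, stood at 3889, 1556 and 3573 CPM at 1 month and 9765, 12945 and 15623 CPM at 12 months (log2 2.09, SE 0.41, adjusted p = 0.00678). miR-101-y stood at 1.75 without 1-month goat 2 (adjusted p = 0.00197). It stood at 1.48 with an adjusted p of 0.0775 without 12-month goat 5. miR-22-y and chi-miR-22-3p, 2 entries of 1 family that restrains growth signalling, rose by 1.30 and 1.42 (adjusted p = 0.0142 and 0.0296). They are named here because their seed family passed. chi-let-7b-3p, the minor arm of let-7b, stood at 159, 54.2 and 138 CPM at 1 month and 390.1, 496.3 and 504 CPM at 12 months (log2 1.99, SE 0.48, adjusted p = 0.0171). chi-let-7b-3p stood at 1.62 without 1-month goat 2 (adjusted p = 0.0158). It lost its call without any 1 of the 12-month goats or 24-month goat 3 or 5 (adjusted p = 0.0528 to 0.116). The major arm, chi-let-7b-5p, had a log2 difference of 1.05 and did not pass (adjusted p = 0.0951).

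miR-145-y, of a smooth muscle family, stood at 33.4, 13.6 and 34.9 CPM at 1 month and 77.9, 143.4 and 86.0 CPM at 12 months (log2 1.91, SE 0.51, adjusted p = 0.0256). The goat-named entries of the family were more abundant and did not pass. chi-miR-145-3p had a mean of 1584 CPM at 1 month and 4181 CPM at 12 months (log2 1.40, adjusted p = 0.0629). chi-miR-145-5p had means of 4897 and 6649 CPM (log2 0.44, adjusted p = 0.62). miR-145-y stood at 1.56 without 1-month goat 2 (adjusted p = 0.0329). The call was lost without any 1 of the 12-month goats or 24-month goat 3 or 5 (adjusted p = 0.0732 to 0.101), with library size alone (0.052) and with 1-month goat 2 as reference (0.0519). miR-885-x was at 111, 36.2 and 91.2 CPM at 1 month and 175, 279 and 262 CPM at 12 months (log2 1.59, SE 0.45, adjusted p = 0.0335). miR-885-x stood at 1.22 without 1-month goat 2 (adjusted p = 0.0237). chi-miR-193b-3p, whose family is known in fat and muscle differentiation, was at 93.4, 35.0 and 87.0 CPM at 1 month and 160.2, 198.99 and 229 CPM at 12 months (log2 1.45, SE 0.44, adjusted p = 0.0411). chi-miR-193b-3p stood at 1.10 without 1-month goat 2 (adjusted p = 0.033). For both, goat 2 was the lowest and the ages did not overlap, and the calls were lost without 1-month goat 3 or any 12- or 24-month goat (adjusted p = 0.053 to 0.225 for miR-885-x and 0.0532 to 0.281 for chi-miR-193b-3p). With library size alone they stood at 0.0791 and 0.0952, and with 1-month goat 2 as reference at 0.0799 and 0.108. chi-miR-193b-3p also missed the threshold with 1-month goat 1 (0.0638) or 12-month goat 4 (0.0595) as reference.

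Most tested leukocyte miRNAs were lower at 12 months, while none of the 7 tested entries of the red cell list passed. Of 16 tested entries of the leukocyte list (miR-142, miR-150, miR-155, miR-223, miR-146 and miR-342) 12 fell and 0 rose, with a median of −3.52, and −2.68 with 11 lower when 1-month goat 2 was left out. The fewest falls, 7, were left without 12-month goat 4. The 4 that did not pass were all entries of miR-146, a brake on innate immune signalling, and chi-miR-146a stood at 1385, 2355 and 2297 CPM at 1 month and 1551, 958 and 1663 CPM at 12 months. Every 1-month goat was above every 12-month goat for the list as a whole, at 3.73, 12.7 and 5.78% at 1 month and 0.712, 0.639 and 0.604% at 12 months. The exact two-sided permutation p for this share was 0.1, the smallest that 3 against 3 allow, and 0.176 adjusted over 37 values per library. Many other list shares separated the ages with the same p, and none passed. miR-142-x, made in all blood-forming cells, stood at 19021, 103059 and 31177 CPM in 1-month goats 1, 2 and 3 and at 1206, 1157 and 1216 CPM in 12-month goats 3, 4 and 5 (log2 −5.42, SE 0.63, adjusted p = 0.0011). miR-142-x stood at −4.42 without 1-month goat 2 (adjusted p = 1.31e-05). The 12-month goats were nearly equal, and all 1-month goats lay far above them. miR-142-y, the other arm, was at 1394, 8544 and 1295 CPM at 1 month and 70.9, 90.0 and 67.2 CPM at 12 months (log2 −5.62, SE 0.77, adjusted p = 0.00151). miR-142-y stood at −4.17 without 1-month goat 2 (adjusted p = 1.31e-05).

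chi-miR-150, a miRNA of mature lymphocytes that represses MYB, stood at 1306, 2627 and 2852 CPM at 1 month and 172, 91.8 and 182.96 CPM at 12 months (log2 −3.93, SE 0.45, adjusted p = 0.0011). chi-miR-150 stood at −3.84 without 1-month goat 2 (adjusted p = 0.000268). Its highest 1-month value was in goat 3, with goat 2 close to it. chi-miR-155-5p, a miRNA of activated lymphocytes, was at 431.6, 1393 and 584 CPM at 1 month and 102.8, 55.5 and 59.3 CPM at 12 months (log2 −3.47, SE 0.53, adjusted p = 0.00233, −2.84 without 1-month goat 2, adjusted p = 0.000755, and −4.06 without 12-month goat 3). chi-miR-223-3p, a miRNA of neutrophils and monocytes, was at 22.02, 34.1 and 625 CPM at 1 month and 7.59, 14.8 and 0.718 CPM at 12 months (log2 −4.88, SE 1.43, adjusted p = 0.0369). Its high value belonged to goat 3 alone. Without that goat it stood at −1.85 (adjusted p = 0.185), without 1-month goat 2 at −5.43 and without 12-month goat 4 at −5.82, and without 12-month goat 3, 4 or 5 or 24-month goat 3 it also did not pass (0.0504 to 0.0842).

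Lymphocyte development miRNAs fell with them. In that list (miR-181, miR-128, miR-150 and miR-155; miR-150 and miR-155 are shared with the leukocyte list) 9 of 13 tested entries fell and 0 rose, with a median of −3.56, and −2.49 with 9 lower without 1-month goat 2. The share of the list was 5.11, 17.97 and 3.88% at 1 month and 0.588, 0.588 and 0.687% at 12 months. miR-181-x, of a family that sets the sensitivity of the T cell receptor in the thymus, stood at 32468, 138070.0 and 23146 CPM in 1-month goats 1, 2 and 3 and at 4879, 4362 and 5806 CPM in 12-month goats 3, 4 and 5 (log2 −3.69, SE 0.63, adjusted p = 0.00397). miR-181-x stood at −2.49 without 1-month goat 2 (adjusted p = 0.0001). In 1-month goat 2 this 1 entry took 13.1% of all counts. Its partner arm miR-181-y was at 769, 4124 and 496.7 CPM at 1 month and 101, 141.5 and 151.99 CPM at 12 months (log2 −3.77, SE 0.73, adjusted p = 0.00594). miR-181-y stood at −2.29 without 1-month goat 2 (adjusted p = 0.000442). Within the family, chi-miR-181b-5p was at 1714, 5123 and 1072 CPM at 1 month and 253, 228 and 303 CPM at 12 months (log2 −3.33, SE 0.55, adjusted p = 0.00332, and −2.43 without 1-month goat 2, adjusted p = 0.000267), while chi-miR-181c-5p, with the same seed, was at 283, 743 and 186 CPM at 1 month and 235, 243 and 301.5 CPM at 12 months (log2 −0.64, adjusted p = 0.356). The log2 ratio of chi-miR-181b-5p to chi-miR-181c-5p was 2.60, 2.79 and 2.53 at 1 month and 0.11, −0.09 and 0.01 at 12 months, with goat 2 close to the other young goats. chi-miR-128-3p, a miRNA of early lymphocytes and of neurons, was at 5195, 30465 and 2979 CPM at 1 month and 399.9, 311 and 484 CPM at 12 months (log2 −5.02, SE 0.85, adjusted p = 0.00385). chi-miR-128-3p stood at −3.38 without 1-month goat 2 (adjusted p = 0.000322).

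Other large falls lay outside these lists. chi-miR-708-3p, from a hairpin within a gene for a teneurin, was at 218, 957 and 286 CPM at 1 month and 50.2, 60.9 and 34.6 CPM at 12 months (log2 −3.33, SE 0.59, adjusted p = 0.00473, and −2.40 without 1-month goat 2, adjusted p = 0.00101), and its other arm chi-miR-708-5p fell by 3.93 (adjusted p = 0.00151). Outside all lists, 26 of 360 named entries rose and 27 fell, against 5.98% and 13.2% of all tested entries. The level of the leukocyte list also differed between ages and between the young goats, and its part in any fall or rise of this and the preceding paragraphs was not tested. The young goats did not rank alike in all entries. The list took 3.73% of counts in 1-month goat 1 and 5.78% in 1-month goat 3, while miR-181-x took 3.84 and 2.82%. Members of the list differed in this order too: 1-month goat 3 was above 1-month goat 1 for miR-142-x and below it for miR-142-y. What sets these orders was not tested.

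**Figure D3:**
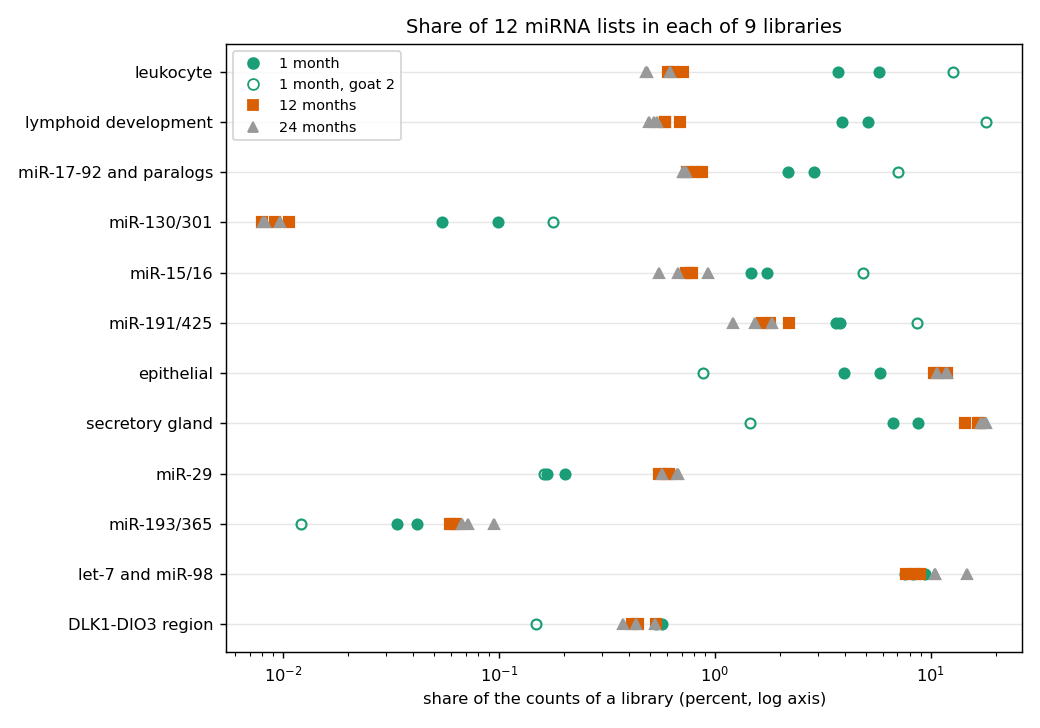
Share of the counts of each of 9 libraries (percent, log axis) taken by 12 miRNA lists. The 1-month goats (green circles, goat 2 open) lie above the 12-month goats (orange squares) in the 6 upper lists and below them in epithelial, secretory gland, miR-29 and miR-193/miR-365, while let-7 and DLK1-DIO3 overlap. The 24-month goats (grey triangles) lie near the 12-month goats in most lists. No list share passed between 1 and 12 months by exact two-sided permutation (smallest adjusted p = 0.176).

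miRNAs that accompany proliferation were lower at 12 months in most of their hairpin clusters. Of 34 tested entries of miR-17-92 and its paralogs 29 fell and 0 rose, with a median of −2.47, and −1.499 with 26 lower without 1-month goat 2. Without 12-month goat 4 the count was 12. The share of the list was 2.88, 7.07 and 2.19% at 1 month and 0.874, 0.739 and 0.818% at 12 months. chi-miR-25-3p, an abundant member, was at 5332, 17009 and 4181 CPM at 1 month and 1811, 1269 and 1883 CPM at 12 months (log2 −2.42, SE 0.53, adjusted p = 0.0115). chi-miR-25-3p stood at −1.55 without 1-month goat 2 (adjusted p = 0.00342). chi-miR-92a-3p and chi-miR-92b, which are listed with 1 sequence, stood at 6501, 19374 and 4881 CPM at 1 month and 2570.2, 1526 and 2443 CPM at 12 months and at 5972, 17668 and 4458 CPM at 1 month and 2302, 1381 and 2249 CPM at 12 months (log2 −2.23 and −2.24, adjusted p = 0.0138 and 0.0137, and −1.41 and −1.42 without 1-month goat 2). Without 12-month goat 4 these 3 entries stood at an adjusted p of 0.0559 to 0.0635.

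Hairpins that lie within 10 kb of each other in the RefSeq gene table of assembly ARS1.2 were read as groups of neighbours: 352 of 358 tested goat-named entries matched a hairpin there, and 37 groups had 2 or more hairpins tested. Entries passed in 12 of these groups, in every case in 1 direction only, and in 6 groups all tested entries passed. The group of miR-106b, miR-93 and miR-25 had 6 of 6 entries lower (−2.75 to −1.53), that of miR-106a, miR-18b, miR-20b, miR-92b and miR-363 had 6 of 6 lower (−4.96 to −2.24), and that of miR-17, miR-18a, miR-19a, miR-20a, miR-19b and miR-92a had 8 of 10 lower (−3.88 to −1.11). The exceptions in the last were chi-miR-19b-3p (−1.11, adjusted p = 0.138) and chi-miR-20a-3p (−1.86, adjusted p = 0.0866). Between clusters the values of paralogs were not alike, though this was not tested. The log2 ratio of chi-miR-20b to chi-miR-20a-5p was −2.86, −3.28 and −3.63 at 1 month and −5.54, −5.04 and −4.99 at 12 months, and that of chi-miR-106a-5p to chi-miR-17-5p was −2.002, −2.15 and −2.57 at 1 month and −3.50, −2.69 and −3.12 at 12 months. In both, the young goats lay above the older ones without overlap, and goat 2 lay between goats 1 and 3. As these miRNAs differ by few bases, reads could be split between them in the authors' counting. chi-miR-92a-3p and chi-miR-92b are listed with 1 sequence, which is thus counted in 2 of the groups and cannot be assigned to either by sequence.

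The miR-130/miR-301 list had 8 of 11 tested entries lower and 0 higher, with a median of −3.31, and −2.71 with 5 lower without 1-month goat 2. Without 12-month goat 4 the count was 4. Its share was 0.0993, 0.178 and 0.0543% at 1 month and 0.00799, 0.0106 and 0.00919% at 12 months. chi-miR-130b-5p was at 660.1, 1444 and 308 CPM at 1 month and 25.6, 36.0 and 40.6 CPM at 12 months (log2 −4.56, SE 0.57, adjusted p = 0.00113, and −3.85 without 1-month goat 2, adjusted p = 0.00013), and the guide arm chi-miR-130b-3p at 46.4, 187 and 31.1 CPM at 1 month and 3.48, 2.45 and 3.32 CPM at 12 months (log2 −4.83, SE 0.72, adjusted p = 0.00196). chi-miR-130b-3p stood at −3.67 without 1-month goat 2 (adjusted p = 0.000259). Neighbours moved alike here as well: miR-130b with miR-301b had 3 of 3 entries lower and miR-301a with miR-454 had 4 of 4 lower. chi-miR-130a-3p, from another hairpin with the same seed as chi-miR-130b-3p, was at 66.9, 44.5 and 59.1 CPM at 1 month and 42.7, 41.0 and 39.9 CPM at 12 months and did not pass (adjusted p = 0.311).

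In the miR-15/miR-16 list the entries that passed were all lower at 12 months. Of its 25 tested entries 7 fell and 0 rose. Its median was 0.18 with all libraries, 0.02 to 0.07 without 1-month goat 1 or 2 or 12-month goat 3, and −1.17 to −0.04 without any other single goat, the lowest without 12-month goat 5. The count of falls was 5 to 9 on leaving out single goats. The group of miR-15b and miR-16b had 4 of 4 entries lower (−4.03 to −2.59). The group of miR-15a and miR-16a had 1 of 3 lower (−1.91 to −0.90), and that of miR-195 and miR-497 had 0 of 3 past the threshold (0.25 to 0.87). chi-miR-16b-5p stood at 2358, 7446 and 1862 CPM at 1 month and 572, 478 and 617 CPM at 12 months (log2 −2.81, SE 0.52, adjusted p = 0.00497, and −1.95 without 1-month goat 2, adjusted p = 0.000539) and chi-miR-15b-3p at 42.6, 233 and 30.4 CPM at 1 month and 6.18, 7.14 and 5.39 CPM at 12 months (log2 −4.03, SE 0.76, adjusted p = 0.00524). chi-miR-15b-3p stood at −2.57 without 1-month goat 2 (adjusted p = 0.000851). chi-miR-15b-5p was at 1692, 6067 and 1009.7 CPM at 1 month and 215.7, 197 and 169 CPM at 12 months (log2 −3.91, and −2.82 without 1-month goat 2). chi-miR-16a-5p, the most abundant of the list, was at 8933, 31950.2 and 7604 CPM at 1 month and 5949, 4589.7 and 6191 CPM at 12 months and did not pass (log2 −1.54, adjusted p = 0.0631). Within a library the log2 ratio of 15b to 15a was 3.33, 3.52 and 3.05 at 1 month and 1.57, 1.51 and 1.15 at 12 months, and that of 16b to 16a was −1.92, −2.10 and −2.03 at 1 month and −3.38, −3.26 and −3.33 at 12 months. In these ratios goat 2 did not stand apart and the ages did not overlap, while reads of miR-16a and miR-16b, which differ by 1 base, could be exchanged in counting.

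**Figure D4:**
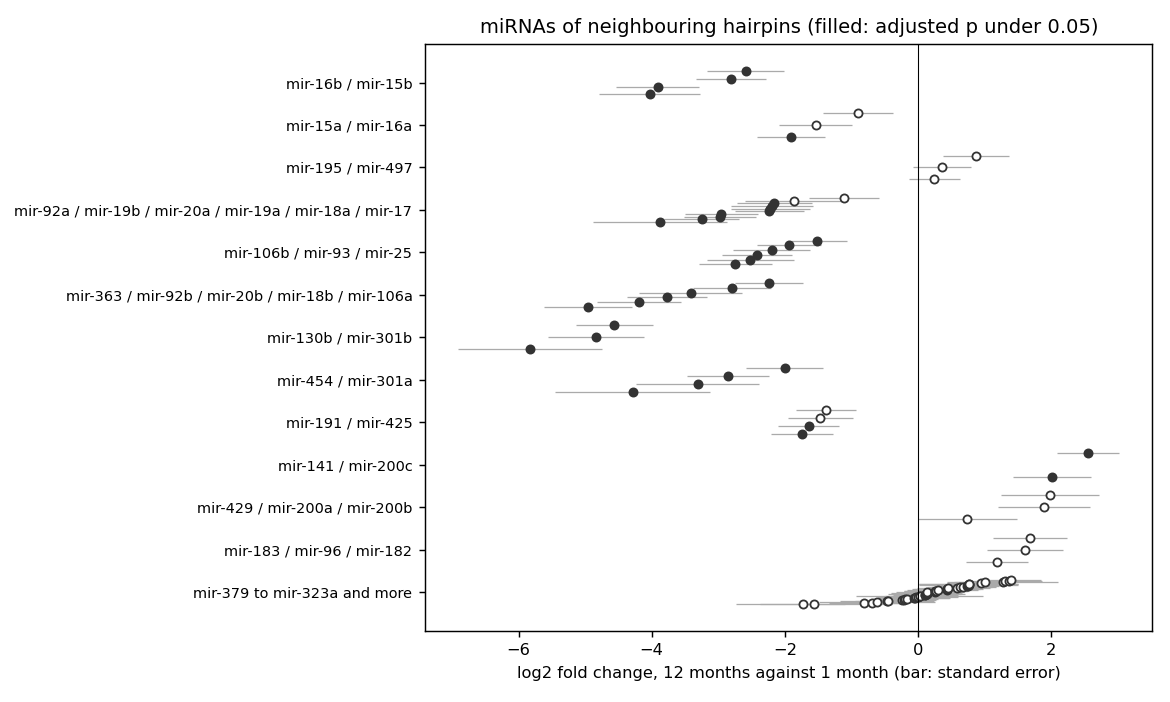
log2 fold change of 12 months over 1 month, with its standard error, for the goat-named entries of 13 groups of neighbouring hairpins. Filled points passed the threshold: all entries of miR-15b/miR-16b, miR-106b/miR-93/miR-25, miR-106a to miR-363, miR-130b/miR-301b and miR-301a/miR-454 lie below 0, those of miR-141/miR-200c above, and the imprinted group of miR-379 to miR-323a (46 entries, none passed) spreads around 0.

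Of the remaining growth-related lists, miR-191/miR-425 had 2 of 8 entries lower (0 without 12-month goat 4, and 4 to 6 without 1-month goat 1 or 3 or any 24-month goat; median −1.69), both arms of miR-425, with chi-miR-425-5p at 172, 421 and 136.4 CPM at 1 month and 70.8, 83.3 and 64.6 CPM at 12 months (log2 −1.74, SE 0.46, adjusted p = 0.0256, −1.11 without 1-month goat 2, adjusted p = 0.0217, and adjusted p = 0.0703 without 12-month goat 4). chi-miR-191-5p, among the 10 most abundant miRNAs, was at 30086, 89222 and 30701 CPM at 1 month and 23248, 16705 and 17716 CPM at 12 months (log2 −1.38, adjusted p = 0.0539). In the miR-103/miR-107 list, of metabolic miRNAs, 1 of 4 fell: chi-miR-103-3p at 1279, 2226 and 1189 CPM at 1 month and 653, 648 and 638 CPM at 12 months (log2 −1.27, SE 0.34, adjusted p = 0.0261, and 0.0926 without 12-month goat 4). In the miR-204/miR-211 list, known from epithelia of the eye and kidney, 1 of 5 fell, miR-204-x (log2 −1.64, SE 0.44, adjusted p = 0.0256, 0.0668 without 1-month goat 1 and 0.103 without 12-month goat 4), at 11.5, 7.32 and 9.60 CPM at 1 month and 3.86, 2.67 and 2.60 CPM at 12 months. The imprinted growth list had 3 of 12 lower and 0 higher (1 without 12-month goat 4, median −0.50), all entries of miR-296, with chi-miR-296-3p at 229, 495.7 and 192.8 CPM at 1 month and 111, 99.6 and 112 CPM at 12 months (log2 −1.51, SE 0.40, adjusted p = 0.0256, and 0.0909 without 12-month goat 4). The X-linked miR-532/miR-500 list had 1 of 18 lower, miR-532-x (median 0.28), which was lost without 1-month goat 3 or 12-month goat 3 or 4. Of all tested entries 13.2% were lower, so 1 call among 18 is no result about this list. In it, chi-miR-660 was level at 334, 343 and 319 CPM at 1 month and 339.9, 307 and 349 CPM at 12 months.

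Rises in the remaining lists were few, and none of those in miR-30, miR-23/miR-27/miR-24, miR-193/miR-365 or hypoxia was called without a 12-month or 24-month goat. Without 1-month goat 2 these lists had 4, 3, 2 and 2 rises. Of all tested entries 5.98% rose. miR-30 had 2 of 13 higher (median 0.87): miR-30-x, at 9836, 7574 and 7652 CPM at 1 month and 15688, 15965 and 16662 CPM at 12 months (log2 0.95, SE 0.29, adjusted p = 0.0449), and chi-miR-30b-3p (log2 1.33). The first passed with all libraries and without 1-month goat 2 (0.86, adjusted p = 0.0212) and failed on leaving out any other single goat (0.0544 to 0.409). miR-23/miR-27/miR-24 had 2 of 13 higher, miR-24-y and miR-27-y (median 0.91), miR-193/miR-365 had 2 of 8 (median 1.14), both arms of miR-193b, and the hypoxia list, miR-210, had 1 of 3 (median 1.17). miR-210-z was at 157, 159 and 121.9 CPM at 1 month and 264, 359.6 and 367 CPM at 12 months (log2 1.17, SE 0.32, adjusted p = 0.0288, and 0.0717 to 0.248 on leaving out 1 of 7 goats). let-7 with miR-98, a family that marks differentiated cells, had 1 higher, chi-let-7b-3p, and 1 lower, chi-let-7i-5p, of 23 (median 0.01). As a seed family let-7 was level, at 87959, 74123 and 77084 CPM at 1 month and 72287, 80558 and 84836 CPM at 12 months, and it was the 1 seed with tested members that passed in both directions (chi-let-7i-5p at −1.26 and miR-8549-x at 2.67, adjusted p = 0.02 and 0.0419).

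In 11 of 32 lists no entry passed with edgeR. They were red cell (7 tested, median −0.55), endothelial (4, 0.41), hepatic (3, 0.24), miR-34/miR-449 (6, 0.15), miR-221/miR-222 (7, −0.81), miR-21 (4, −0.34), miR-26 (5, −0.03), miR-99/miR-100/miR-125 (14, 0.15), the Hox-linked miR-10/miR-196/miR-615 (7, −0.99), the imprinted DLK1-DIO3 region (84, 0.23) and miR-132/miR-212 (4, −1.03). Of their tested entries, 13 had an unadjusted p below 0.05, and DESeq2 called 8 and limma voom 7. On leaving out single goats 1 to 4 entries fell in miR-221/miR-222 (3 without 12-month goat 3), miR-10/miR-196/miR-615 (2 without 12-month goat 5), DLK1-DIO3 (4 without 1-month goat 2) and miR-132/miR-212, and none rose. The medians of hepatic, miR-34/miR-449, miR-26, miR-99/miR-100/miR-125 and DLK1-DIO3, and those of let-7, miR-15/miR-16, miR-532/miR-500 and miR-103/miR-107, changed sign under at least 1 other scaling. On leaving out 1 goat the medians of these 9 lists also changed sign, as did those of miR-21 (0.59 without 1-month goat 2), endothelial (−0.06 without 12-month goat 5), neural (0.02 and 0.04 without 12-month goat 4 and 1-month goat 2), smooth muscle and mesenchyme (0.14 without 1-month goat 3) and striated muscle. chi-miR-126-3p, the endothelial miRNA, was at 4663, 2369.9 and 6730.2 CPM at 1 month and 5001, 3306 and 4351 CPM at 12 months, and miR-451-x, of red cells, at 1121, 265 and 533 CPM at 1 month and 325, 649.9 and 105 CPM at 12 months; both overlapped between ages. chi-miR-21-5p, raised in injury and growth, was at 9482, 12036 and 15364 CPM at 1 month and 12470.1, 7011 and 6636 CPM at 12 months. chi-miR-411a-5p, the most abundant of the DLK1-DIO3 region, was at 1157, 330.1 and 1110.0 CPM at 1 month and 1505, 1282 and 1514 CPM at 12 months, with goat 2 low and no overlap between ages.

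Muscle, mesenchymal and nerve markers did not move as lists. Their counts are to be read against 5.98% higher and 13.2% lower over all tested entries. Striated muscle had 2 of 10 entries higher (median 1.39, and −1.04 without 12-month goat 4), both arms of miR-499, neither called without 1-month goat 3 or any 12- or 24-month goat. Its most abundant members were high in 12-month goat 4 alone: chi-miR-206, of muscle fibres, was at 65.0, 61.9 and 28.4 CPM at 1 month and 10.6, 826 and 10.1 CPM at 12 months, and chi-miR-1 at 812 CPM in that goat and 37.5 to 227 CPM in the other 5. chi-miR-206 did not pass (log2 2.45, adjusted p = 0.199), and without that goat it was lower at 12 months (−2.30, adjusted p = 0.036). The smooth muscle and mesenchyme list had 1 of 19 higher, miR-145-y (median −0.34), with 2 higher without 1-month goat 3, and without 1-month goat 2 it had 3 higher and 5 lower. chi-miR-143-3p, its most abundant member, was at 47038, 5999.9 and 57546 CPM at 1 month and 56237, 33831 and 61839.8 CPM at 12 months, low in goat 2 and otherwise overlapping. The neural list had 1 of 10 lower, chi-miR-129-5p (median −0.15), and chi-miR-9-5p, a miRNA of neurons, was at 39.6, 19.2 and 31.8 CPM at 1 month and 45.4, 25.2 and 39.1 CPM at 12 months.

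Summing counts over each seed gives 1 value per target-recognition group. Of 583 seeds tested 130 passed (22.3%), 27 higher (4.63%) and the others lower (17.7%). Without 12-month goat 3, 4 or 5 the number that passed was 59, 50 and 58, of which 18, 14 and 8 were higher. Without 1-month goat 1, 2 and 3 the number higher was 42, 43 and 15, and the lower seeds numbered 36 to 97 over all 9 ways of leaving out a goat. DESeq2 called 71 seeds higher and 105 lower (40.3% of its calls higher, against 20.8%). Among the 168 seeds with at least 2 tested members, 6 rose and 38 fell. The 12 most abundant of these 44 were as follows. Seed ACATTCA (miR-181) was at 38489, 135154 and 27953 CPM at 1 month and 4821, 4688 and 6091 CPM at 12 months (log2 −3.69, SE 0.57, adjusted p = 0.00204). Seed ACATTCA stood at −2.58 without 1-month goat 2 (adjusted p = 4.45e-05). Seed ATAAAGT (miR-142-x with miR-3964-y) stood at −5.53, CACAGTG (miR-128) at −5.29, AAAGTGC (miR-17, miR-20, miR-93 and miR-106) at −2.65 and ATTGCAC (miR-25, miR-92 and miR-363) at −2.44, with adjusted p of 0.000354, 0.00204, 0.00317 and 0.00505. Seed AGCAGCA (miR-15 and miR-16, 11 tested members, of which 3 passed on their own) fell by 1.87, from 16118, 47818 and 13430.1 CPM at 1 month and 7108, 6449 and 7655 CPM at 12 months (adjusted p = 0.0185, −0.96 without 1-month goat 2, and adjusted p = 0.0677 to 0.108 without a 12-month goat). CTCACAC (miR-342) stood at −1.74 (adjusted p = 0.00362).

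Seed AACGGAA (miR-191 with miR-462) fell by 1.51 although none of its members passed singly, from 33829, 84537 and 35385 CPM at 1 month and 20844, 16268 and 16825 CPM at 12 months (adjusted p = 0.0231, −0.83 without 1-month goat 2, and lost at 0.0585 to 0.128 without any 12-month goat or 24-month goat 3 or 5). Upward, AGCACCA (miR-29) stood at 1554, 1582 and 1874 CPM at 1 month and 5759, 4959.6 and 6011 CPM at 12 months (log2 1.74, SE 0.29, adjusted p = 0.00307). Seed AGCACCA stood at 1.81 without 1-month goat 2 (adjusted p = 0.000433). AACACTG (miR-141 and miR-200a) was the most abundant of the rising seeds, at 24410.4, 2536 and 18017 CPM at 1 month and 50182, 58020.1 and 58503 CPM at 12 months (log2 1.89, SE 0.61, adjusted p = 0.0475, and 1.49 without 1-month goat 2, adjusted p = 0.000643), with the call lost without 1-month goat 3 or any older goat (0.0611 to 0.124). ACAGTAC (miR-101) rose by 1.59 and AGCTGCC (miR-22) by 1.10 (adjusted p = 0.0184 and 0.0249). The first lost its call without 12-month goat 5 (0.09) and the other without 12-month goat 3, 4 or 5 (0.0542 to 0.0816). The calls of ATTGCAC and CTCACAC were lost without 12-month goat 4 (0.0538 and 0.0584), and ATTGCAC stood at −1.60, AAAGTGC at −1.87, ATAAAGT at −4.57 and CACAGTG at −3.69 without 1-month goat 2.

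Both arms of a hairpin are made together, so their ratio within 1 library needs no scaling. None of the arm ratios passed with limma (0%), 18 had an unadjusted p below 0.05, and the smallest adjusted p was 0.166. With a pseudocount of 5, 1 of the same ratios passed, which is 0.82% of those tested. With pairs of other-named entries added, 1 ratio passed (0.46%). The 5 with the smallest p, none of which passed, were those of miR-221 (5p over 3p, log2 difference 0.94), miR-128 (2.76), let-7i (−1.07), miR-30a (0.83) and miR-27a (−1.53), at adjusted p of 0.166 to 0.181. For let-7i, a let-7 member, the log2 ratio was 6.75, 7.15 and 6.99 at 1 month and 6.29, 5.64 and 5.74 at 12 months, without overlap. The ages did not overlap in 29 of all arm ratios tested, among them these 5, so this does not set let-7i apart.

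The length of the 3′ end was read from pairs of a goat-named entry and another that begins with its whole sequence and runs on by 1 to 4 bases. Some pairs join different miRNAs, among them chi-miR-107-3p with chi-miR-103-3p and chi-miR-193a with chi-miR-193b-3p. Of 96 such pairs 5 passed with limma (5.21%; 3, 1 and 3 without 1-month goat 3, 12-month goat 3 and 12-month goat 4), 4 toward the longer form at 12 months and 1 toward the shorter. The 5 pairs are shown with the added bases of the longer form in capitals.
miR-128-y: tcacagtgaaccggtctctttCA
miR-329-y: aacacacctggttaacctctCC
miR-101-y: tacagtactgtgataactgaCT
miR-107-y: agcagcattgtacagggctatCT
miR-1468-x: ctccgtttgcctgttttgctgaAA

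For miR-128 the longer form took 13.7, 16.9 and 11.1% at 1 month and 2.63, 4.17 and 3.16% at 12 months of the counts of both forms (log2 −2.23, SE 0.25, adjusted p = 0.000437), so the longer form was lower by more than the shorter, and the 3 young goats were alike. This held on leaving out any 1 of the 9 libraries. For miR-101, which was higher at 12 months, the longer form was the main one and its share was 66.5, 58.4 and 65.5% at 1 month and 76.6, 79.3 and 77.5% at 12 months (log2 1.01, SE 0.19, adjusted p = 0.0136, and 0.06 without 12-month goat 3). For miR-329, a miRNA of the DLK1-DIO3 region, the share was 10.4, 11.2 and 9.18% at 1 month and 25.7, 23.8 and 23.2% at 12 months (log2 1.48, SE 0.26, adjusted p = 0.0109, and 0.06 without 12-month goat 3). For miR-107 it was 31.0, 26.4 and 24.2% at 1 month and 41.2, 44.4 and 42.7% at 12 months (log2 1.01, SE 0.21, adjusted p = 0.0197), and the call was lost without 1-month goat 3 or any 12-month goat (0.0604 to 0.0859). The sequence of chi-miR-107-3p is also the start of chi-miR-103-3p. Reads of either miRNA could be counted there, so this share does not isolate miR-107. For miR-1468 it was 1.02, 1.33 and 1.04% at 1 month and 2.03, 2.02 and 2.61% at 12 months (log2 0.98, SE 0.22, adjusted p = 0.0254, and 0.0548 to 0.122 on leaving out 1 of 6 goats). The ages did not overlap in 19 of all 96 pairs, among them these 5, which were chosen by the test on the same values. How the authors assigned reads that match both forms is not given in the sources used here.

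**Figure D5:**
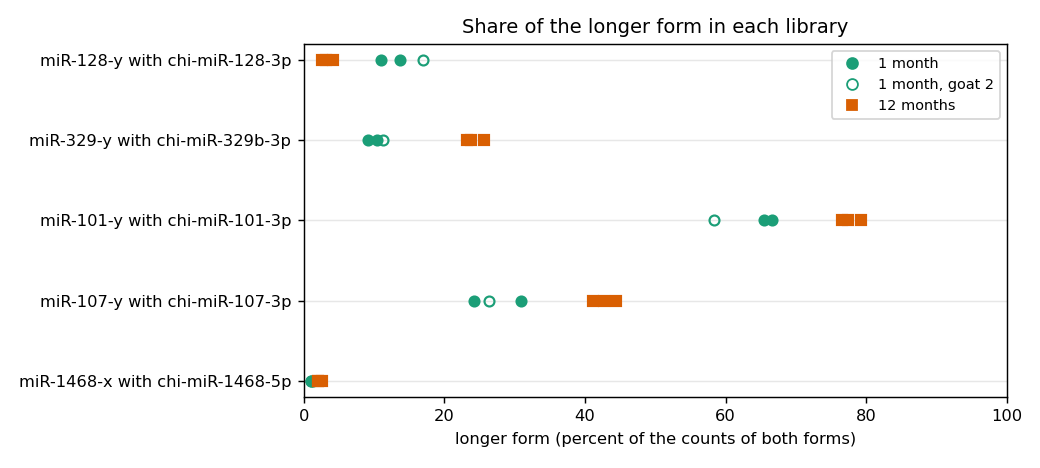
Longer form as a percentage of the counts of both forms, in each 1-month goat (green circles, goat 2 open) and 12-month goat (orange squares), for the 5 pairs that passed. The share fell for miR-128 (11.1 to 16.9% against 2.63 to 4.17%) and rose for the other 4.

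The make-up of the pool by first base also differed. Counts that start with C took 11.0, 23.5 and 13.7% at 1 month and 6.72, 5.98 and 5.56% at 12 months, and those that start with T took 68.8, 54.2 and 66.7% at 1 month and 77.7, 78.6 and 80.5% at 12 months, both without overlap (exact two-sided permutation p = 0.1 for each, the smallest that 3 against 3 allow, and 0.176 adjusted over 37 values per library). Part of the C share in the young goats was miR-142-x. Without that entry the share was 8.75, 13.7 and 9.94% at 1 month and 6.61, 5.86 and 5.44% at 12 months. Entries detected numbered 1448, 1459 and 1489 at 1 month and 1179, 1286 and 1348 at 12 months (exact permutation p = 0.1, and 0.176 adjusted).

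Of the 10 most abundant entries 2 passed, against 19.2% of all tested entries and 27.2% of those with a mean of at least 1000 CPM. The 10 most abundant entries over the 6 libraries included the goat-named let-7a-5p, miR-125b-5p, miR-27b-3p, miR-191-5p, miR-99a-5p, miR-143-3p, miR-148a-3p and miR-26a-5p, together with miR-181-x and miR-142-x, which passed at −3.69 and −5.42. The other 8 ranged from −1.38 for chi-miR-191-5p to 1.92 for chi-miR-148a-3p. chi-miR-26a-5p, a brake on growth, was at 99776, 132705 and 98534 CPM at 1 month and 126113, 84223 and 132289 CPM at 12 months (log2 0.05, adjusted p = 0.918), chi-miR-125b-5p at 32025, 25895 and 33026 CPM at 1 month and 42512, 34514 and 39091 CPM at 12 months (0.35, adjusted p = 0.378), and chi-let-7a-5p at 30447, 20029.9 and 22686 CPM at 1 month and 31190.5, 34427 and 35166 CPM at 12 months (0.46, adjusted p = 0.323). Of the others, chi-miR-99a-5p stood at 0.49 and chi-miR-27b-3p at 0.96 (adjusted p = 0.302 and 0.0635). The small differences of chi-miR-26a-5p, chi-miR-125b-5p and chi-miR-143-3p changed sign on leaving out some single goats (−0.45, −0.06 and −0.16 without 12-month goat 5).

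Levels at 24 months are given beside those at 12 months. The 24-month libraries are not among those compared, but they entered the same fit, and 24-month goat 2 was the scaling reference. Their levels are thus no separate check of the calls. The step from 12 to 24 months is not tested here. chi-miR-141 was at 27945 ± 3391 CPM (SD, n = 3) at 24 months and 25402 ± 1961 at 12 months, chi-miR-29a-3p at 4631 ± 674 and 4382 ± 751, and miR-375-y at 31902 ± 2377 and 23090.2 ± 5636. Among the falls, miR-142-x was at 1055 ± 154.6 and 1193.2 ± 32.0, miR-181-x at 4222 ± 336.9 and 5016 ± 732, and chi-miR-16b-5p at 531 ± 101 and 556 ± 70.9. The let-7 seed was at 136576 ± 47979 CPM at 24 months against 79227 ± 6379 at 12 months.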

How the data were processed

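Small RNA libraries of 9 goats were deposited as 1 table of unscaled read counts per mature miRNA entry, per the file headers. Bowtie and FastQC appear in the submitters' processing notes with neither version nor role. The genome build, the settings and the release of the miRNA database were not given in the sources used here. Groups came from the age labels. Entries were filtered with edgeR's filterByExpr (minimum count 10, minimum total 15), scaled by TMM and fitted with robust quasi-likelihood over 3 ages (edgeR 4.0.16, R 4.3.3, adjusted p below 0.05). Seeds were summed over bases 2 to 8 with each listed sequence entered once, and scaled by TMM over the sums. Arm and length ratios used limma 3.58.1 on log2 ratios with a pseudocount of 0.5 and a mean of at least 10 counts per entry. Single values per library used exact permutation (SciPy 1.17.1). The edgeR and limma p-values set the age difference against the spread between goats of the same age. That spread was estimated as 1 value per entry, seed or ratio, shared by the 3 ages. The wider spread at 1 month therefore had no estimate of its own. The fits were tested on simulated data.

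The members and the 32 lists were chosen with earlier results of these data known. Named miRNAs were, among family-named entries past the threshold without overlap and with at least 100 CPM at either age, the most abundant entry of each seed, and of these the 12 largest rises and 12 largest falls; the 10 most abundant entries; up to 3 members per list; the 12 most abundant passing seeds with 2 or more tested members; and passing ratios, or the 5 with the smallest p where fewer than 3 passed. Others were chosen after their values were seen: miR-20-x, chi-miR-146a, chi-miR-429, chi-miR-181c-5p, chi-miR-7-5p, chi-miR-708-5p, chi-miR-19b-3p, chi-miR-20a-3p, chi-miR-30b-3p, chi-miR-129-5p, chi-miR-145-3p, chi-let-7i-5p, miR-8549-x, miR-532-x, miR-24-y, miR-27-y, chi-miR-27a-3p, both arms of miR-499, and the members of the ratios between related miRNAs. Alternatives covered scaling, tool, filter, libraries and naming. DESeq2 1.42.0 and limma voom were alternatives. Sequences are those of the deposited table.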

Additional observations from a re-analysis of the deposited data

How the results depend on the processing

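Of entries, 285 passed with DESeq2 and 99 with the goat-named entries fitted alone, against 180. Leaving out each replicate in turn gave 83 to 218 entries, and with the scaling of all libraries kept, an alternative chosen after seeing the data, 92, 83 and 88 without 12-month goat 3, 4 and 5. Of seeds tested, 7.74 to 21.97% passed on leaving out each replicate, against 22.3%. Arm ratios gave 1 call with a pseudocount of 5 and 1 with other-named pairs added, against 0. Length ratios gave 1 to 6 on leaving out each replicate, against 5. Of the named miRNAs, 0 of the 39 that passed and 27 of the 71 that did not changed sign under at least 1 setting. Of these 1, chi-miR-206, passed with the other sign: it ranged from −2.30 without 12-month goat 4 to 2.66 without 1-month goat 1, and stood at −2.32 with the scaling kept. The cause was not tested. Limma voom gave 98 higher and 130 lower entries, and no filter on low counts 262 of 2189 in all. Low counts limit the 448 entries with a mean below 10 CPM, of which 14.5% passed. No paired analysis was possible because the 2 ages compared share only 1 replicate number, and each library is from a different goat.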
